A study of Homo sapiens with 12 samples.

Results

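The integrin alpha subunits described here are the products of ITGA1, ITGA2, ITGA3, ITGA4, ITGA5, ITGA6, ITGA7, ITGA10, ITGA11 and ITGAV. These genes were chosen by name as 10 of the 32152 genes with values, and were grouped by the main ligand of their protein. An integrin is a cell surface receptor made of 1 alpha and 1 beta subunit, which ties the extracellular matrix outside the cell to the actin cytoskeleton inside it, and the alpha subunit largely sets which ligand is bound. With the beta1 subunit, alpha1, alpha2, alpha10 and alpha11 bind collagens, and alpha3, alpha6 and alpha7 bind laminins of basement membranes. Alpha5 and alphaV recognise the arginine-glycine-aspartate (RGD) motif of fibronectin, vitronectin and other matrix proteins. Alpha4 binds VCAM1 and an LDV motif in fibronectin. In breast epithelium, alpha3 and alpha6 anchor cells to the basement membrane, while alpha11 is known mainly from fibroblasts and other mesenchymal cells.

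RNA-seq was performed on Hs-578T and MDA-MB-231, which are established lines of triple-negative breast cancer (TNBC). For either line there were 2 libraries of parental control cells, 2 labelled ERK5-ko, made with CRISPR/Cas9 guides to MAPK7, the gene of ERK5, and 2 labelled MEK5DD, a constitutively active form of the kinase that activates ERK5. The MDA-MB-231 knockout line came from 1 surviving clone, the Hs-578T clone that was sequenced is not stated, and the study's methods do not describe how the MEK5DD cells were made. The labels give passages 29 and 30 for MDA-MB-231 parental cells, 7 and 8 for ERK5-ko and 10 and 11 for MEK5DD. In Hs-578T they give 83 and 84 for parental cells and 8 and 9 for both other labels. Per the study's methods, the MDA-MB-231 knockout started from cells at a higher passage than its label numbers. The same holds for Hs-578T if its name is misprinted there. The ERK5-ko numbers thus do not run on the parental scale, and a lower number does not mean an earlier passage. For MEK5DD the start of the count is not stated. Label and culture history change together against parental cells, and their parts in a difference were not separated. Nothing states that replicates were separate cultures beyond their consecutive passages, and p-values measure only the spread between these libraries.

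MAPK7 RNA was in no library labelled ERK5-ko below the parental level of its line. It was 13.3 and 14.3 RPKM (reads on a gene scaled to the length of its model and to the library's total) in the MDA-MB-231 parental libraries against 16.3 and 17.8 in those labelled ERK5-ko, and 14.0 and 16.0 against 17.8 and 18.1 in Hs-578T. The log2 fold changes were 0.29 (adjusted p = 0.0710) and 0.26 (adjusted p = 0.0624), and with a replicate block both passed as higher (adjusted p = 0.0274 and 0.0252, limma). Small CRISPR deletions and insertions can end a protein without lowering its RNA, and ERK5 protein, which the study assessed by Western blot, was not analysed here, so every direction below refers to the libraries labelled ERK5-ko. MAP2K5, the gene of MEK5, rose in the libraries labelled MEK5DD. In MDA-MB-231 it went from 12.9 and 13.6 to 188 and 184 RPKM (log2 fold change 3.77, adjusted p = 3.31e-10). In Hs-578T it went from 14.6 and 16.9 to 21.3 and 23.8 (0.50, adjusted p = 0.00492), which did not pass under every alternative tried. ESR1, which encodes the estrogen receptor, was near 0 in both lines and VIM, a mesenchymal filament, was at 3520 RPKM in Hs-578T and 1680 in MDA-MB-231 parental cells. Of 10 marker genes listed, 6 were tested between the parental lines (limma, adjusted p under 0.05). The epithelial filament genes KRT8 and KRT18 and the leukocyte gene ITGB2 were higher in MDA-MB-231, where 46% of all genes were. VIM and the endothelial gene PECAM1 were lower, where 31.3% of all genes were. The library totals lay between 20248162 and 27791195 reads.

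Sequences at the RefSeq starts of ITGA2, ITGA11 and ITGA10 are shown because ITGA2 moved in opposite directions in the lines, ITGA11 separated the lines most, and ITGA10 was lowest in the libraries labelled ERK5-ko of both lines. They come from RefSeq (GRCh38.p14), which held promoter windows for 8 of the 10 genes, in 10 entries. Capitals in the ITGA2 sequence mark the GC box GGGCGG and those in the ITGA10 sequence a match to the MEF2 consensus, searched on both strands. Positions are counted from the RefSeq start of the gene. The ITGA2 and ITGA11 stretches lie upstream of every exon of GENCODE 29. The ITGA10 stretch does not, since GENCODE 29 starts that gene further upstream, and its 30 bases lie 52 to 81 bases inside the gene, in an exon of ITGA10.
ITGA2, chr5:52989102-52989325, plus strand, positions -250 to -27: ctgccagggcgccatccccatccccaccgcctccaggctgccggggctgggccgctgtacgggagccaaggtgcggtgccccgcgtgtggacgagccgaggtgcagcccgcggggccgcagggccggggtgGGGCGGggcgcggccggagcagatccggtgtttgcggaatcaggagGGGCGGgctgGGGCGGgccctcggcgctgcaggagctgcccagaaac
ITGA11, chr15:68432164-68432413, minus strand, positions -250 to -1: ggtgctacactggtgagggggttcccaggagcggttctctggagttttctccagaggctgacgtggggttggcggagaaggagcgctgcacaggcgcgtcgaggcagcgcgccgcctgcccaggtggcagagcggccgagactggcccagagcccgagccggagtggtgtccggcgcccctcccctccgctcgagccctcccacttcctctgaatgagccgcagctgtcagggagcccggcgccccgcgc
ITGA10, chr1:145910108-145910137, minus strand, positions -87 to -58: ccttccaactTTATTTTTAGctgccattgg
The ITGA2 stretch holds 3 GC boxes and is 77.2% G and C. GGGCGG was in the window of ITGA2 4 times, of ITGA6 3 times and of ITGA5 1 time, and 42.6% of all 35116 promoter windows of 250 bases held it. The ITGA11 stretch is 71.2% G and C and held none of the searched motifs. The MEF2 consensus was found in the ITGA10 window alone among these genes, at -77 to -68, against 2.8% of all windows. The AP-1 letters TGANTCA were in no window of these genes and in 6.57% of all windows. A match describes the letters of the window and not a bound site.

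The lines differed most in ITGA11, ITGA4, ITGA6 and ITGA2, as the plot of levels by library shows. RPKM is given per length of gene model, so the order of different genes within a library depends on the lengths used. Set per longest transcript, ITGA10 came ahead of ITGA1 in Hs-578T parental cells. In MDA-MB-231 parental cells ITGA3 was highest at 1121 ± 26.5 RPKM (SD, n = 2), followed by ITGA6 at 238, ITGA5 at 120, ITGAV at 77.4, ITGA2 at 42.8, ITGA1 at 8.11, ITGA10 at 1.3 and ITGA7 at 0.582 RPKM. In Hs-578T parental cells the order was ITGA11 at 560 ± 106 (SD, n = 2), ITGA5 at 404, ITGA3 at 280, ITGAV at 144, ITGA4 at 31.2, ITGA1 at 8.71, ITGA6 at 7.31, ITGA10 at 6.08, ITGA2 at 5.39 and ITGA7 at 2.22 RPKM. Neighbours from ITGA1 to ITGA2 in the Hs-578T order lay close to the spread between their 2 libraries.

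**Figure D1:**
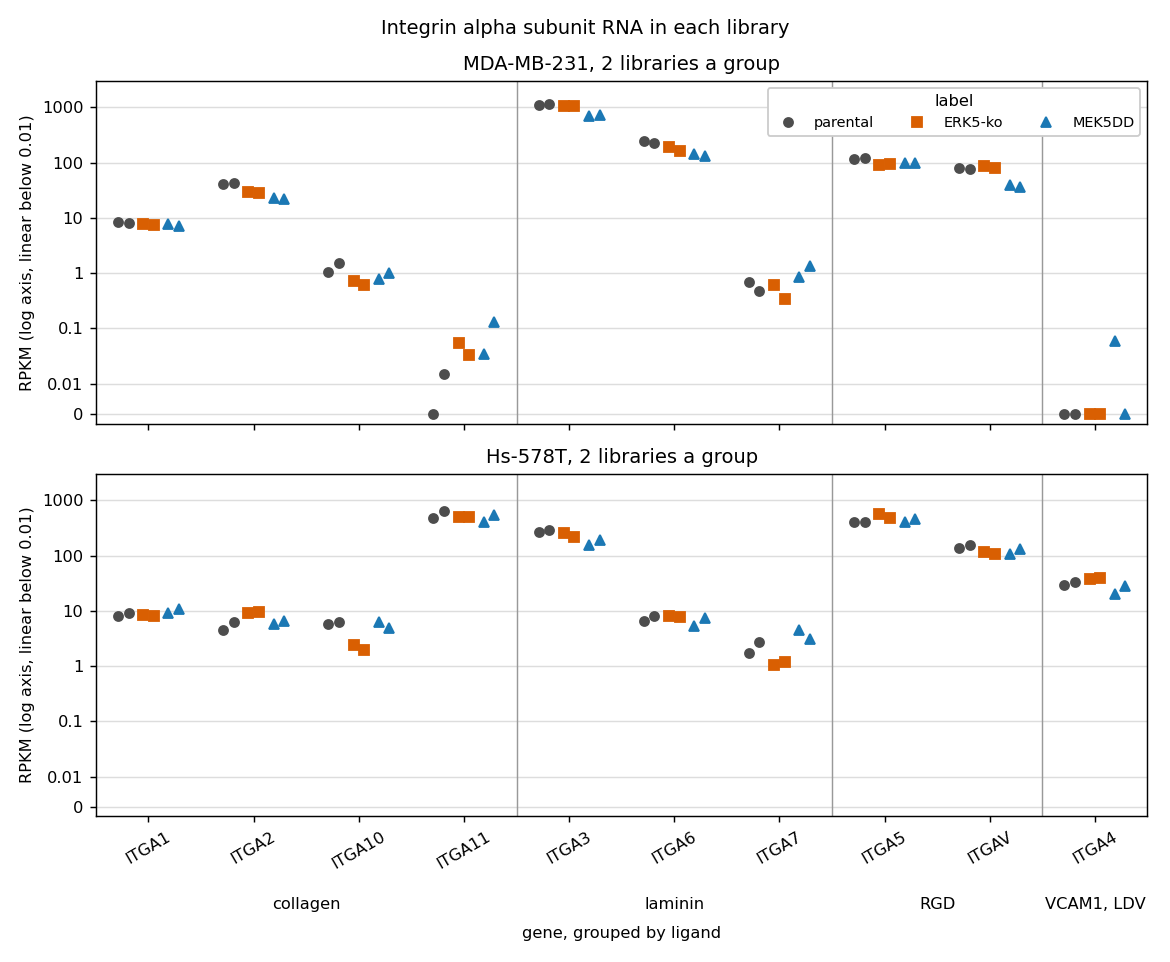
RPKM of the 10 integrin alpha genes in each of 12 libraries, on a log axis that is linear below 0.01; circles are parental, squares ERK5-ko and triangles MEK5DD libraries, and vertical lines part the ligand groups. ITGA11 and ITGA4 lie near 0 in MDA-MB-231 and at 398 to 635 and 20.1 to 38.9 RPKM in Hs-578T.

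Summed over the 10 genes, laminin-binding alpha subunits made up 84.5% ± 0.0337 (SD, n = 2) of the RPKM in MDA-MB-231 parental cells, RGD-binding ones 12.2% and collagen-binding ones 3.24%. In Hs-578T parental cells the collagen-binding genes made up 39.9% ± 3.35 (SD, n = 2), the RGD-binding genes 38.0% ± 2.49, the laminin-binding genes 19.4% and 20.6% in the 2 libraries and ITGA4 2.16%. The collagen-binding genes held 37.5% in library 1 and 42.2% in library 2, against 39.8% and 36.2% for the RGD-binding genes. Which of these 2 groups came first thus differed between the libraries. ITGA8, an RGD receptor gene described below, is not in this sum. ITGA3 alone held 69.7% of the MDA-MB-231 sum and ITGA11 alone 38.5% of the Hs-578T sum. The gene lengths behind the RPKM values are the mean over transcripts and are 1.76 to 4.16 times shorter than the longest transcript. Set per longest transcript, a scale chosen after seeing the data, laminin-binding genes held 83.5% in MDA-MB-231, but in Hs-578T the RGD-binding genes came first with 39.6%, ahead of the collagen-binding genes with 35.6%.

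**Figure D2:**
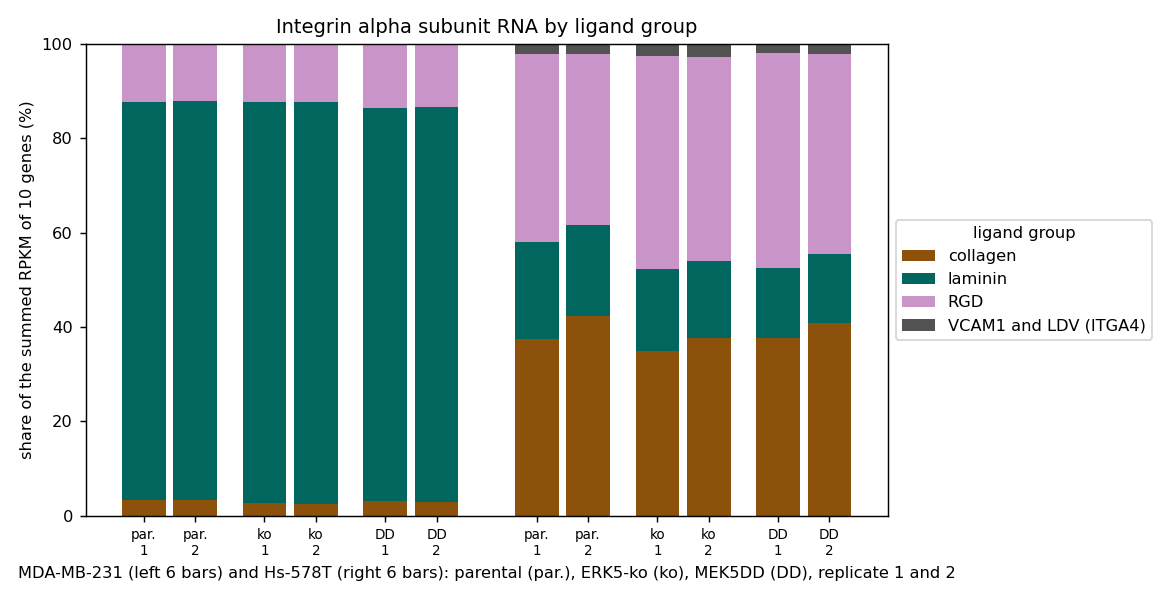
Share of each ligand group in the summed RPKM of the 10 genes (percent, stacked to 100), 1 bar a library, with MDA-MB-231 on the left and Hs-578T on the right. Laminin-binding genes fill 83.3% to 85.3% of each MDA-MB-231 bar and 14.7% to 20.6% of each Hs-578T bar.

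The test was limma on log2(RPKM + 0.5), with p-values adjusted over all 13737 protein-coding genes tested, and a gene passed at an adjusted p under 0.05. All 10 genes were tested. The added 0.5 draws log2 fold changes toward 0 where RPKM is low, as for ITGA7 and ITGA10. ITGA11 and ITGA4 reached the 0.5 RPKM needed for testing in Hs-578T libraries only, so their lower calls in MDA-MB-231 follow from how they entered the test. Between the parental lines, 3 of the 10 genes were higher in MDA-MB-231 and 6 were lower, where 77.4% of all genes passed, 46% as higher and 31.3% as lower. The laminin receptor gene ITGA6 had the largest gap in favour of MDA-MB-231, at 245 and 231 RPKM against 6.66 and 7.96 in Hs-578T (log2 fold change 4.94, SE 0.140, adjusted p = 2.72e-11). ITGA2 was higher in MDA-MB-231 by 2.89 (adjusted p = 1.84e-09) and ITGA3 by 2.0 (adjusted p = 1.93e-08) on the log2 scale. Both are beta1 partners, for collagen and for laminin. Lower in MDA-MB-231 were ITGA10 (log2 fold change -1.88, adjusted p = 7.79e-07), ITGA5 (-1.75, adjusted p = 1.02e-08), ITGA7 (-1.32, adjusted p = 0.000285) and ITGAV (-0.89, adjusted p = 1.55e-05).

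ITGA11 and ITGA4 were near absent from MDA-MB-231. The MDA-MB-231 parental libraries held 0 and 1 reads on ITGA11, those labelled ERK5-ko 3 and 2 and those labelled MEK5DD 2 and 9, while Hs-578T parental cells stood at 484 and 635 RPKM. With the MDA-MB-231 level set at 3 reads a library, the level that a count of 0 allows, ITGA11 was at least 11947-fold higher in Hs-578T parental cells. ITGA4 had 0 reads in 5 of 6 MDA-MB-231 libraries and 2 in the other, against 29.5 and 32.9 RPKM in Hs-578T parental cells, a difference of at least 385.5-fold. No fold is given for either gene within MDA-MB-231, and these limits cover counting error only. ITGA1 was the gene at a like level in both lines, at 8.29 and 7.93 RPKM in MDA-MB-231 and 8.13 and 9.29 in Hs-578T parental cells (log2 fold change -0.09, 95% confidence interval -0.34 to 0.15, adjusted p = 0.446). Scaling the libraries by median ratios lowered the median difference over all genes from 0.19 by 0.21 on the log2 scale, and ITGA1 then passed as lower in MDA-MB-231 (-0.32, adjusted p = 0.0161), as it did after quantile normalization (-0.29, adjusted p = 0.0134), while the 9 genes that passed above kept their direction. Over the 10 genes the median was -1.10 with ITGA11 and ITGA4 at their bounds.

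Among the collagen receptors, ITGA2, the alpha subunit of a main platelet and epithelial collagen receptor, moved apart in the lines. It stood at 41.9 and 43.6 RPKM in MDA-MB-231 parental libraries, 29.8 and 28.1 in those labelled ERK5-ko and 22.9 and 21.6 in those labelled MEK5DD. The 3 groups did not overlap. In Hs-578T, ITGA2 stood at 4.501 and 6.27 in parental libraries, 9.18 and 9.48 in those labelled ERK5-ko and 5.77 and 6.55 in those labelled MEK5DD. Only the ERK5-ko libraries of Hs-578T lay above all parental ones. Against parental cells, ITGA2 fell in MDA-MB-231 with ERK5-ko (log2 fold change -0.55, SE 0.132, adjusted p = 0.0143) and with MEK5DD (-0.93, adjusted p = 0.000171) and rose in Hs-578T with ERK5-ko (0.76, adjusted p = 0.000962). Its MEK5DD value in Hs-578T was 0.19 (adjusted p = 0.326). The fall with ERK5-ko in MDA-MB-231 was lost on leaving out any 1 of the 4 libraries compared (parental 1 or 2, ERK5-ko 1 or 2), with adjusted p-values from 0.0580 to 0.104. The other 2 changes passed under every alternative tried, limits on the fold aside.

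ITGA10, which encodes a collagen receptor subunit best known from cartilage, was low in both lines. In Hs-578T it stood at 5.85 and 6.31 RPKM in parental libraries, 2.40 and 1.99 in those labelled ERK5-ko and 6.27 and 4.82 in those labelled MEK5DD. The ERK5-ko libraries lay below all others of that line, and ITGA10 fell against parental cells (log2 fold change -1.29, SE 0.166, adjusted p = 0.000123), under every alternative tried. In MDA-MB-231 it stood at 1.06 and 1.55 in parental libraries, 0.726 and 0.616 in those labelled ERK5-ko and 0.778 and 1.02 in those labelled MEK5DD. Here it also fell with ERK5-ko (-0.61, SE 0.166, adjusted p = 0.0267), but this did not pass without parental library 2 (-0.41, adjusted p = 0.234), without ERK5-ko library 1 (-0.68, adjusted p = 0.0789) or library 2 (-0.54, adjusted p = 0.155). It did not pass either after quantile normalization (-0.50, adjusted p = 0.0713), with no filter on low values (adjusted p = 0.0538) or in the fit on the MDA-MB-231 libraries alone (adjusted p = 0.0507). In limma voom on recovered reads the ITGA10 value was -0.95 (adjusted p = 0.0375). With MEK5DD its value was -0.13 (adjusted p = 0.621) in Hs-578T, against -0.36 (adjusted p = 0.110) in MDA-MB-231.

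The remaining collagen receptor genes, ITGA1 and ITGA11, did not pass against parental cells in either line where a fold could be given. ITGA1, whose protein binds collagen IV, kept between 7.04 and 10.7 RPKM over all 12 libraries. ITGA1 shares 475 exon bases with PELO on the same strand, and reads in that stretch cannot be assigned to either gene. ITGA11 in Hs-578T stood at 484 and 635 RPKM in parental libraries, 507 and 498 in those labelled ERK5-ko and 398 and 534 in those labelled MEK5DD, and all 3 groups overlapped. Its log2 fold changes were -0.14 (adjusted p = 0.503) and -0.27 (adjusted p = 0.249).

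Among the laminin receptors, ITGA3 was lower in MEK5DD cells of both lines. ITGA3 stood at 1102 and 1140 RPKM in MDA-MB-231 parental libraries, 1056 and 1065 in those labelled ERK5-ko and 700 and 724 in those labelled MEK5DD. In Hs-578T it stood at 268 and 292, at 250.7 and 213, and at 154 and 189 RPKM. The MEK5DD libraries were the lowest of each line and did not overlap with any other. ITGA3 fell with MEK5DD by 0.66 on the log2 scale in MDA-MB-231 (SE 0.117, adjusted p = 0.000892) and by 0.71 in Hs-578T (SE 0.117, adjusted p = 0.00159), under every alternative tried. With ERK5-ko its values were -0.08 (adjusted p = 0.710) and -0.27 (adjusted p = 0.0878).

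ITGA6, which pairs with beta4 in hemidesmosomes as well as with beta1, stood at 245 and 231 RPKM in MDA-MB-231 parental libraries, 189 and 163 in those labelled ERK5-ko and 146 and 133 in those labelled MEK5DD. These 3 groups did not overlap. ITGA6 fell with MEK5DD (log2 fold change -0.77, SE 0.140, adjusted p = 0.000966), and with ERK5-ko the value was -0.44 (adjusted p = 0.0515, and 0.0154 with a replicate block). In Hs-578T it stood at 6.66 and 7.96, at 8.10 and 7.61 and at 5.33 and 7.33 RPKM, and the groups overlapped.

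ITGA7, a laminin receptor subunit of muscle, rested on 13 to 140 reads a library. In Hs-578T it stood at 1.72 and 2.72 RPKM in parental libraries, 1.03 and 1.17 in those labelled ERK5-ko and 4.54 and 3.04 in those labelled MEK5DD. The 3 groups of Hs-578T did not overlap. ITGA7 fell with ERK5-ko (log2 fold change -0.75, SE 0.234, adjusted p = 0.0252), but this did not pass without parental library 2 (-0.48, adjusted p = 0.159), ERK5-ko library 1 (adjusted p = 0.120) or ERK5-ko library 2 (adjusted p = 0.0867), with no filter on low values (adjusted p = 0.0512) or within Hs-578T alone (adjusted p = 0.0773). With MEK5DD its values were 0.66 in Hs-578T (adjusted p = 0.0645) and 0.56 in MDA-MB-231 (adjusted p = 0.0759), where it stood at 0.691 and 0.473 RPKM in parental and 0.846 and 1.37 in MEK5DD libraries.

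The fibronectin receptor gene ITGA5 moved in opposite directions with ERK5-ko. In MDA-MB-231 it stood at 117 and 122 RPKM in parental libraries, 91.6 and 95.3 in those labelled ERK5-ko and 98.4 and 100.2 in those labelled MEK5DD. In Hs-578T it stood at 398 and 410, at 567 and 486 and at 403 and 449 RPKM. Parental libraries were the highest of MDA-MB-231, and ERK5-ko libraries the highest of Hs-578T. ITGA5 fell with ERK5-ko in MDA-MB-231 (log2 fold change -0.35, SE 0.0961, adjusted p = 0.0264) and rose with it in Hs-578T (0.38, SE 0.0961, adjusted p = 0.00935). The fall in MDA-MB-231 was lost on leaving out any 1 of the 6 libraries of that line (adjusted p from 0.0511 to 0.169) and under median-ratio scaling (adjusted p = 0.0642). The rise in Hs-578T was lost without ERK5-ko library 1 (0.27, adjusted p = 0.0872) and in the fit on that line alone (adjusted p = 0.0932). With MEK5DD, ITGA5 fell in MDA-MB-231 (-0.27, adjusted p = 0.0436), and this too was lost on leaving out any 1 of the 6 libraries of the line (adjusted p from 0.0618 to 0.198), under median-ratio scaling (adjusted p = 0.0783), after quantile normalization (adjusted p = 0.0533) and with no variance trend (adjusted p = 0.0547). In Hs-578T the MEK5DD value was 0.07 (adjusted p = 0.637).

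ITGAV, the alpha subunit that pairs with beta1, beta3, beta5, beta6 and beta8, had the largest fall with MEK5DD of the genes with a fold. It stood at 78.9 and 75.9 RPKM in MDA-MB-231 parental libraries, 88.5 and 80.9 in those labelled ERK5-ko and 40.0 and 37.0 in those labelled MEK5DD. The MEK5DD libraries averaged 38.5 RPKM against 77.4 in parental cells (log2 fold change -1.0, SE 0.111, adjusted p = 2.50e-05), under every alternative tried. In Hs-578T, ITGAV stood at 135 and 153, at 115 and 108 and at 105 and 129 RPKM, and all parental libraries lay above the others. It fell there with ERK5-ko (-0.37, SE 0.111, adjusted p = 0.0217), which did not pass without parental library 2 (-0.28, adjusted p = 0.116), ERK5-ko library 1 (adjusted p = 0.0540) or library 2 (adjusted p = 0.136), or within Hs-578T alone (adjusted p = 0.106). With MEK5DD in Hs-578T its value was -0.30 (adjusted p = 0.0704, and 0.0298 with a replicate block), and with ERK5-ko in MDA-MB-231 it was 0.13 (adjusted p = 0.486).

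ITGA4, the subunit of leukocyte and mesenchymal VCAM1 receptors, could be compared within Hs-578T. It stood at 29.5 and 32.9 RPKM in parental libraries, 37.9 and 38.9 in those labelled ERK5-ko and 20.1 and 28.3 in those labelled MEK5DD, and the 3 groups did not overlap. Against parental cells its log2 fold changes were 0.30 with ERK5-ko (adjusted p = 0.130) and -0.38 with MEK5DD (adjusted p = 0.0867, and 0.0427 with a replicate block). The leukocyte marker PTPRC was at 0.116 RPKM in Hs-578T and 0.0477 in MDA-MB-231 parental cells.

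**Figure D3:**
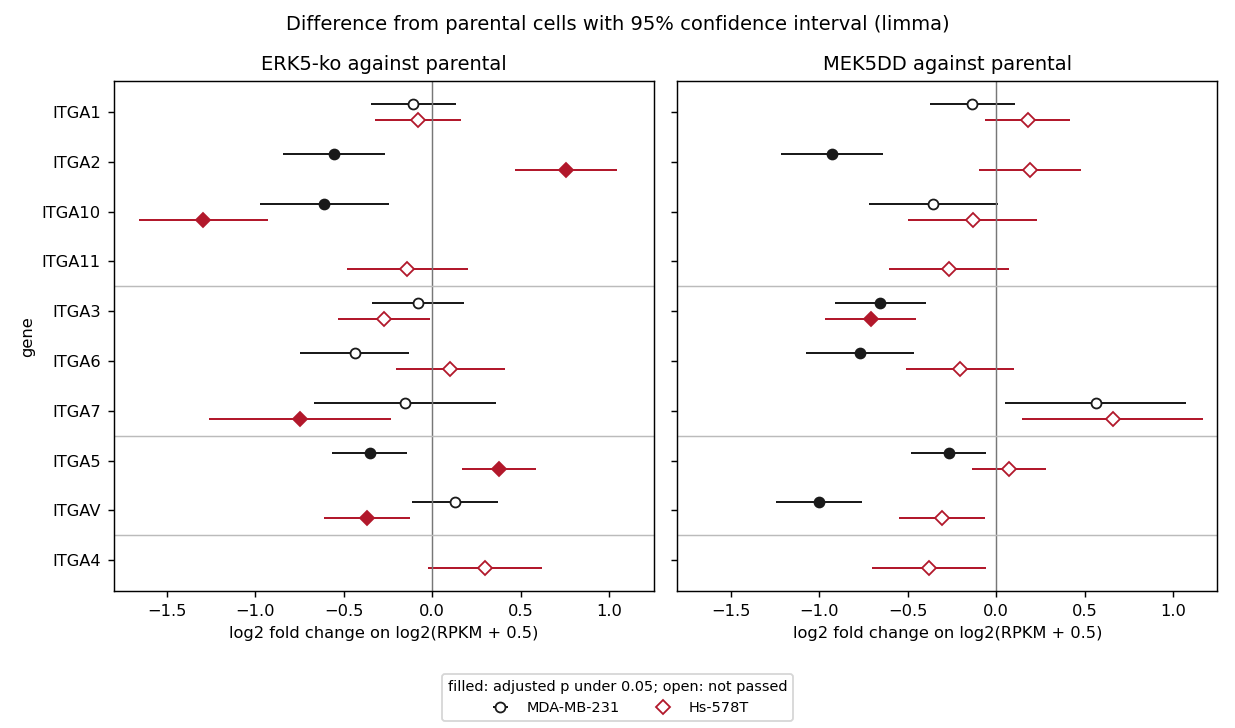
log2 fold change against parental cells of the same line for ERK5-ko (left) and MEK5DD (right), with 95% confidence intervals from limma; circles are MDA-MB-231, diamonds Hs-578T, and filled symbols passed at an adjusted p under 0.05. With ERK5-ko, ITGA2 lies at 0.76 in Hs-578T and -0.55 in MDA-MB-231, and with MEK5DD, ITGA3 lies at -0.71 and -0.66 in the same order. ITGA11 and ITGA4 are not drawn for MDA-MB-231.

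Counted over the 10 genes, 3 passed as lower and none as higher with ERK5-ko in MDA-MB-231 (ITGA2, ITGA10 and ITGA5), where 17.3% of all genes tested passed, 6.91% as higher and 10.4% as lower. ITGA11 and ITGA4 stayed in this count of 10, though near absent from MDA-MB-231. The median log2 fold change was -0.25 over the 8 genes with a fold and -0.04 over all genes. In Hs-578T 2 passed as higher (ITGA2 and ITGA5) and 3 as lower (ITGA10, ITGA7 and ITGAV) with ERK5-ko, where 39.4% of all genes passed, 19.7% as higher and 19.7% as lower, and the medians were -0.11 and 0.01. With MEK5DD in MDA-MB-231 5 passed as lower (ITGA2, ITGA3, ITGA6, ITGA5 and ITGAV) and none as higher, where 41.3% of all genes passed, 17.5% as higher and 23.8% as lower. The medians there were -0.51 and -0.01. With MEK5DD in Hs-578T only ITGA3 passed, as lower, where 23.4% of all genes passed, 6.44% as higher and 17% as lower, and the medians were -0.17 and -0.08. That count was 3 with a replicate block (ITGA3, ITGA4 and ITGAV), 3 without parental library 2 (ITGA2, ITGA3 and ITGA7) and 6 without MEK5DD library 2 (ITGA3, ITGA4, ITGA6, ITGA7, ITGA11 and ITGAV). The ERK5-ko count in MDA-MB-231 was 1 without parental library 1 and 0 without parental library 2 or either ERK5-ko library, and that in Hs-578T was 3 without parental library 2 or ERK5-ko library 2 and 2 without ERK5-ko library 1. Fitted on the 6 Hs-578T libraries alone, 2 genes passed with ERK5-ko (ITGA2 and ITGA10). Limits on the fold (above 1.5 or below 0.5) were then added, taken on RPKM + 0.5. With them, ITGA2 and ITGA10 with ERK5-ko in Hs-578T were the only calls of these 4 comparisons, where 9.35% of all genes passed as higher and 3.27% as lower. The plain ratio of mean RPKM also lay below 0.5 for ITGAV with MEK5DD in MDA-MB-231 (0.498) and ITGA7 with ERK5-ko in Hs-578T (0.493). The comparisons of ERK5-ko and of MEK5DD share their parental libraries.

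The genes were also compared directly between ERK5-ko and MEK5DD, which leaves the parental libraries out of the difference. In MDA-MB-231, 3 genes were higher in ERK5-ko and 1 lower, where 55% of all genes passed, 27.1% as higher and 27.9% as lower. ITGAV was higher in ERK5-ko by 1.13 (SE 0.111, adjusted p = 5.72e-06), ITGA3 by 0.58 (adjusted p = 0.00141) and ITGA2 by 0.37 (adjusted p = 0.0304) on the log2 scale. ITGA7 was lower, with a log2 difference of -0.72 (adjusted p = 0.0217), and of -1.24 in limma voom on recovered reads (adjusted p = 0.0329). The ITGA2 difference was lost on leaving out any 1 of its 4 libraries (adjusted p from 0.0698 to 0.146), and that of ITGA7 without ERK5-ko library 2 (adjusted p = 0.167) or MEK5DD library 2 (adjusted p = 0.187), so that 2 genes passed without either. The value of ITGA6 was 0.33 (adjusted p = 0.0645, and 0.0225 with a replicate block).

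In Hs-578T both labels give passages 8 and 9, though whether these were counted from the same start is not stated. There 4 genes were higher in ERK5-ko than in MEK5DD and 2 lower. Of all genes 50% passed, 30.7% as higher and 19.2% as lower. ITGA4 was higher by 0.68 (SE 0.147, adjusted p = 0.00278), ITGA2 by 0.56 (adjusted p = 0.00436), ITGA3 by 0.44 (adjusted p = 0.00952) and ITGA5 by 0.30 (adjusted p = 0.0214). ITGA7 was lower, with a log2 difference of -1.41 (SE 0.234, adjusted p = 0.000483), as was ITGA10, with -1.16 (SE 0.166, adjusted p = 0.000165). The difference of ITGA3 did not pass without ERK5-ko library 1 (0.32, adjusted p = 0.0951) or MEK5DD library 1 (0.29, adjusted p = 0.0559), nor that of ITGA5 without ERK5-ko library 1 (0.19, adjusted p = 0.177), without MEK5DD library 1 (0.23, adjusted p = 0.0907) or under median-ratio scaling (0.18, adjusted p = 0.138). Fitted on the 6 Hs-578T libraries alone, 3 of the 6 passed (ITGA4, ITGA7 and ITGA10). With a replicate block ITGA1 (-0.26, adjusted p = 0.0401 against 0.0698) and ITGA6 (0.31, adjusted p = 0.0337 against 0.0885) passed as well.

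Whether the labels acted alike in the lines was tested as the difference between their log2 fold changes. For ERK5-ko, 5 of the 10 genes differed between MDA-MB-231 and Hs-578T, where 39.8% of all genes did, 18.3% with a higher and 21.5% with a lower value in MDA-MB-231. The ERK5-ko value was lower in MDA-MB-231 for ITGA2 (difference -1.31, SE 0.186, adjusted p = 0.000270), ITGA5 (-0.73, SE 0.136, adjusted p = 0.00156) and ITGA6 (-0.54, adjusted p = 0.0476), and higher for ITGA10 (0.68, adjusted p = 0.0380) and ITGAV (0.49, adjusted p = 0.0269). The differences of ITGA2 and ITGA5 passed under every alternative. The difference of ITGA6 was lost without either parental library, ERK5-ko library 2 or either MEK5DD library of MDA-MB-231, and without parental library 1 or either ERK5-ko library of Hs-578T, with adjusted p-values up to 0.168. It was lost as well under median-ratio scaling, with no filter, all gene types, no variance trend or a pseudocount of 0.1 (adjusted p up to 0.0784). That of ITGA10 was lost without parental library 1 or either ERK5-ko library of MDA-MB-231, and without either parental library or ERK5-ko library 2 of Hs-578T (adjusted p up to 0.1603), with no filter, all gene types or a pseudocount of 0.1 (adjusted p up to 0.142), and in limma voom on recovered reads (0.52, adjusted p = 0.2404). That of ITGAV was lost without either parental library or ERK5-ko library 1 of MDA-MB-231, and without parental library 2 or ERK5-ko library 2 of Hs-578T (adjusted p up to 0.0954). The count was 2 without MDA-MB-231 parental library 1 or Hs-578T ERK5-ko library 2, and 3 without each of 5 other libraries.

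For MEK5DD, 3 genes differed between the lines, where 39.6% of all genes did, 21.3% with a higher and 18.2% with a lower value in MDA-MB-231. The MEK5DD value was lower in MDA-MB-231 for ITGA2 (difference -1.12, SE 0.186, adjusted p = 0.000693) and ITGAV (-0.70, SE 0.157, adjusted p = 0.00464), under every alternative. In Hs-578T neither passed with MEK5DD, at 0.19 for ITGA2 (adjusted p = 0.326) and -0.30 for ITGAV (adjusted p = 0.0704). The difference of ITGA6 (-0.57, adjusted p = 0.0403) was lost without any 1 parental or MEK5DD library of MDA-MB-231. It was lost as well without parental library 1, MEK5DD library 2 or either ERK5-ko library of Hs-578T. It did not pass either with no filter, all gene types, a pseudocount of 0.1 or voom (adjusted p up to 0.0642). The count was 5 without MEK5DD library 1 of Hs-578T. ITGA3, which fell in both lines, had a difference of 0.05 (95% confidence interval -0.31 to 0.42, adjusted p = 0.822). MAP2K5, the gene of MEK5, itself rose by 3.77 in MDA-MB-231 and by 0.50 in Hs-578T (difference 3.26, SE 0.144, adjusted p = 4.84e-08). The MEK5DD label thus stood for unlike rises of MAP2K5 RNA, and the part of this in the differences above was not tested.

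**Figure D4:**
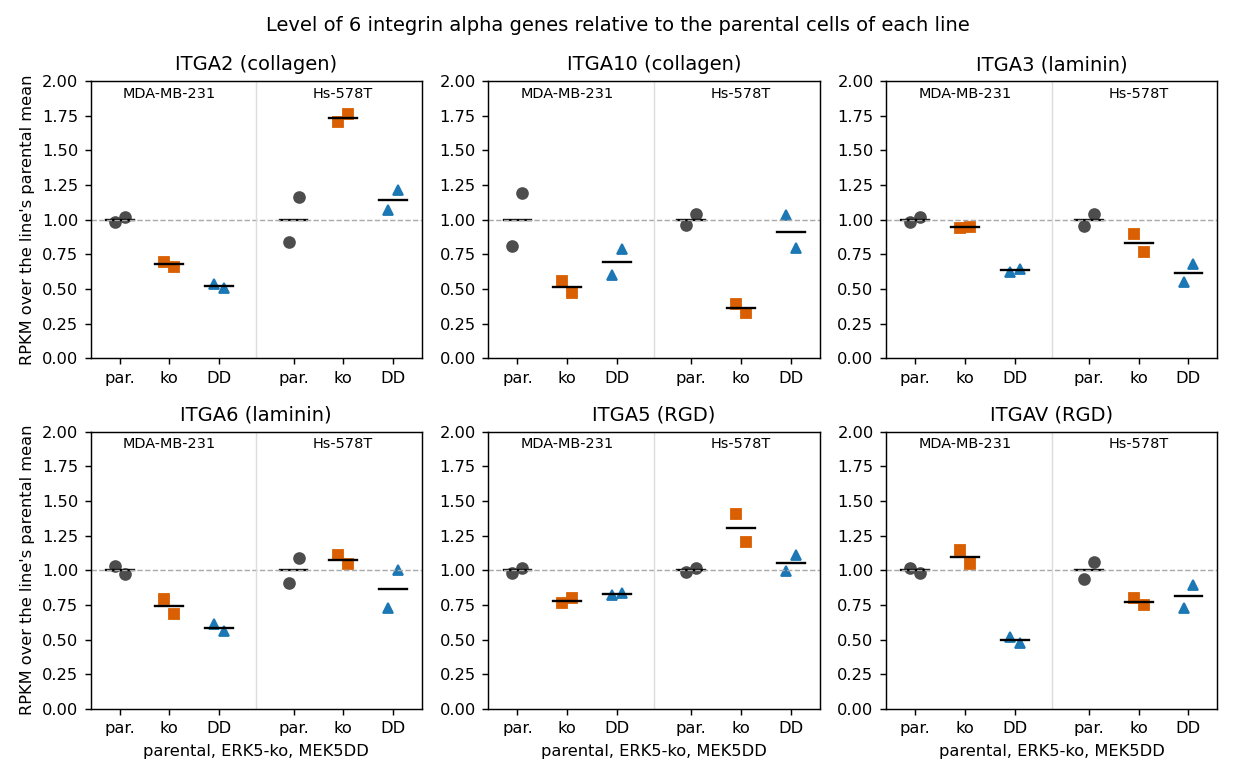
RPKM of 6 genes in each library divided by the mean of the 2 parental libraries of the same line, with short bars at group means; circles are parental (par.), squares ERK5-ko (ko) and triangles MEK5DD (DD). ITGA2 with ERK5-ko lies at 1.73 times the parental mean in Hs-578T and 0.678 in MDA-MB-231, and ITGAV with MEK5DD at 0.498 in MDA-MB-231.

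Beta subunits decide which heterodimers these alpha subunits can form, and 6 of the 8 integrin beta genes were tested. ITGB1, whose product can pair with each of these alpha subunits, was between 1021 and 1875 RPKM in the 12 libraries and passed in no comparison within a line. ITGB4, the beta4 partner of ITGA6 in hemidesmosomes, stood at 216 and 253 RPKM in MDA-MB-231 parental libraries and at 0.242 and 0.343 in those of Hs-578T (log2 fold change 8.21, adjusted p = 3.71e-13), the same direction as ITGA6. ITGB4 reached the 0.5 RPKM needed for testing in MDA-MB-231 libraries only, so this call follows from how it entered the test. Its Hs-578T parental level rested on 14 and 18 reads. Of the beta partners of ITGAV, ITGB3 and ITGB5 fell with MEK5DD in MDA-MB-231 and ITGB8 rose. ITGB3 stood at 4.98 and 5.09 RPKM in parental and 1.32 and 1.61 in MEK5DD libraries (log2 fold change -1.50, adjusted p = 8.46e-06), and ITGB5 at 307 and 298 against 165 and 167 (-0.86, adjusted p = 2.53e-05). ITGB8 went from 1.96 and 2.05 to 3.53 and 3.11 RPKM (0.61, adjusted p = 0.00245). Over the 6 tested beta genes, 2 rose and 3 fell with MEK5DD in MDA-MB-231 (17.5% and 23.8% of all genes), and the number that fell was 2 to 4 over the alternatives. With MEK5DD in Hs-578T 1 rose and 2 fell (6.44% and 17% of all genes), of which ITGB2 did not pass without MEK5DD library 2 or either parental library, at a pseudocount of 1 or after quantile normalization. With ERK5-ko in Hs-578T 2 fell (19.7% of all genes), of which ITGB8 did not pass without ERK5-ko library 1 or parental library 2, or within that line alone. The other, ITGB4, lay under 0.5 RPKM in every Hs-578T library. It rested on 14 and 18 reads in parental libraries and 1 and 2 in those labelled ERK5-ko. With ERK5-ko in MDA-MB-231 1 rose and 1 fell (6.91% and 10.4% of all genes), and the 1 that rose, ITGB8, was lost without ERK5-ko library 1 or parental library 1. Of 8 other integrin alpha genes, ITGA8 and ITGAE were tested, and ITGA8, another RGD receptor gene, was at 29.9 and 35.8 RPKM in Hs-578T and 0 in MDA-MB-231 parental libraries.

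Among the matrix ligands of these receptors, laminin genes went both ways between the parental lines. Of 10 tested, 3 were higher in MDA-MB-231 and 5 lower, and of 10 RGD ligand genes 1 was higher and 8 lower. Over all genes 46% were higher and 31.3% lower. LAMA2 and SPP1, among the lower ones, reached the level needed for testing in Hs-578T libraries only. All 10 collagen genes tested were lower in MDA-MB-231 than in Hs-578T parental cells, where 31.3% of all genes were. Of these, COL3A1 and COL5A2 reached the level needed for testing in Hs-578T libraries only. With MEK5DD in MDA-MB-231, 6 of them fell (5 to 7 over the alternatives) and none rose, where 23.8% of all genes fell. COL6A1, a chain of the collagen VI filaments, dropped from 116 and 122 to 8.41 and 8.42 RPKM (log2 fold change -3.74, adjusted p = 1.90e-09). In Hs-578T, 3 collagen genes fell with ERK5-ko (2 to 4 over the alternatives), where 19.7% of all genes fell. With MEK5DD 1 rose there, COL1A1, where 6.44% of all genes rose, and it did not pass without MEK5DD library 2 or parental library 1, within Hs-578T alone or after quantile normalization. Of 10 laminin genes tested, 3 rose and 4 fell with MEK5DD in MDA-MB-231 (2 to 3 and 4 to 5 over the alternatives), among them LAMA5, a laminin alpha chain of basement membranes, from 127 and 125 to 19.5 and 21.1 RPKM (-2.61, adjusted p = 2.78e-06), and 4 rose and 3 fell with ERK5-ko in Hs-578T (3 to 4 and 2 to 4). Of 10 tested RGD ligand genes, 5 rose (2 to 6 over the alternatives) and 3 fell with MEK5DD in MDA-MB-231, among them TNC, the matrix protein tenascin C, which rose from 18.3 and 20.6 to 104.8 and 105.1 RPKM (2.41, adjusted p = 2.91e-07). Beside these laminin and RGD counts, 17.5% of all genes rose and 23.8% fell with MEK5DD in MDA-MB-231. With ERK5-ko in Hs-578T 19.7% rose and 19.7% fell. LAMA1, among the laminin genes that rose with MEK5DD in MDA-MB-231, averaged 0.112 RPKM in parental and 0.379 in MEK5DD libraries. Of the ligands of ITGA4, VCAM1 was at or under 0.723 RPKM in every library. FN1, the gene of fibronectin, was at 1847 and 3278 RPKM in Hs-578T parental libraries. Of 22 genes of the integrin adhesion complex, 6 rose and 2 fell with ERK5-ko in Hs-578T (1 to 8 and 1 to 3 over the alternatives), where 19.7% of all genes rose and 19.7% fell. With ERK5-ko in MDA-MB-231 3 rose and 2 fell (0 to 4 each over the alternatives), where 6.91% of all genes rose and 10.4% fell. PXN, the adaptor paxillin, stood at 250 and 266 RPKM in MDA-MB-231 parental and 176 and 186 in ERK5-ko libraries (-0.51, adjusted p = 0.00601), and at 60.02 and 62.9 against 99.96 and 101.6 in Hs-578T (0.71, adjusted p = 0.000293). The MDA-MB-231 fall of PXN did not pass without parental library 2 or ERK5-ko library 1, with adjusted p-values up to 0.0673.

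As a description of which genes varied alike, each gene was correlated over the 12 libraries after the mean of its line was subtracted, with no test, since the libraries share 6 groups. Among the alpha genes, ITGA2 was most like ITGA6 (Pearson r = 0.820) and ITGA5 (r = 0.820), and ITGA3 most like ITGAV (r = 0.80). Over all tested genes the nearest to ITGAV was EPHB4 (r = 0.990), that to ITGA2 was MAMLD1 (r = 0.972) and that to ITGA3 was MGRN1 (r = 0.9748). The nearest to ITGA4 was MAP3K3 (r = 0.9747), and PXN was second nearest to ITGA5 (r = 0.913). TGM2 was nearest to ITGA10 (r = 0.955), DPF3 to ITGA7 (r = 0.953), LPIN2 to ITGA1 (r = 0.938), and SMARCC2 to ITGA11 (r = 0.875). ITGA4 and ITGA11 were near absent from MDA-MB-231, so their r rests almost wholly on the Hs-578T libraries. Each nearest gene is the one with the highest r among all tested genes.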

How the data were processed

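RNA-seq covered 12 libraries from Hs-578T and MDA-MB-231 cells, 2 for each line and label (parental, ERK5-ko, MEK5DD), and samples were grouped by these labels. Per the labels, cells were harvested 70% confluent and a stranded mRNA kit was used. The authors deposited RPKM values for 32152 genes. The submitters' processing notes list bcl2fastq, Trimmomatic 0.32, TopHat2 2.1.1, R 3.3.1 and DESeq2 1.12.4 and the build GRCh38. The counting tool, its strand setting and the annotation are not given in the sources used here, so reads of a gene and an overlapping partner may not be told apart. For all 10 genes the length behind the RPKM values was within 1 base of the mean GENCODE 29 transcript length less the number of exons.

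The RPKM values gave back whole reads, with library totals of 20248162 to 27791195 reads; 32151 genes gave whole reads within 0.001 read in every library, and totals 1% off did so for 0 of 500 genes. The recovery and the fit were tested on simulated data. A level of 3 reads a library was taken as the limit that a count of 0 allows, for counting error only.

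A linear model of log2(RPKM + 0.5) with 1 mean for each of the 6 groups was fitted to all 12 libraries (limma 3.58.1, R 4.3.3, variance trend), which left 6 residual degrees of freedom and 1 shared estimate of the spread. Tests were two-sided and took in the 13737 protein-coding genes that reached 0.5 RPKM in 2 or more libraries, with Benjamini-Hochberg adjustment for each comparison on its own. An exact permutation test of 2 against 2 libraries cannot go below p = 0.333. Because the spread is shared, a library left alone in its group is assumed to vary like the other groups. Replicate numbers paired the libraries: the deviations of libraries with the same number from their group means correlated at 0.107 to 0.541 in all 6 pairs of groups within a line, so the fit with the number as a block is printed where it changed a call. All 10 genes are named, with the genes of ligand, partner and adhesion lists counted. Some of the genes most like these are not reported here. The members and lists were chosen with earlier results of these data known. Alternatives changed the pseudocount, filter, scaling, gene types, variance model, thresholds, libraries and model (limma voom on recovered reads). Tables and figures were made in Python 3.11.15 (pandas 2.3.3, numpy 2.4.6, matplotlib 3.10.9).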

Additional observations from a re-analysis of the deposited data

Results flagged for a closer look

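The log2 fold changes of 5 genes with ERK5-ko and of 3 genes with MEK5DD differed between MDA-MB-231 and Hs-578T by the test of the difference itself (limma, MDA-MB-231 minus Hs-578T, n = 2 libraries a group). With ERK5-ko the differences were -1.31 for ITGA2, 0.68 for ITGA10, -0.54 for ITGA6, -0.73 for ITGA5 and 0.49 for ITGAV. With MEK5DD they were -1.12 for ITGA2, -0.57 for ITGA6 and -0.70 for ITGAV. In ITGA2 and ITGA5 the ERK5-ko change itself passed in both lines, downward in MDA-MB-231 and upward in Hs-578T. In ITGA10 the direction was downward in both, and in ITGAV the MDA-MB-231 value did not pass. The ITGA2 and ITGA5 falls in MDA-MB-231 were each lost on leaving out any 1 of the libraries compared. The ITGA5 rise in Hs-578T was lost without ERK5-ko library 1. The differences of ITGA6, ITGA10 and ITGAV with ERK5-ko, and of ITGA6 with MEK5DD, did not pass under every alternative. The 2 lines differ in the passage numbers on their labels, in the clones behind the ERK5-ko label and in the rise of MAP2K5 with MEK5DD. The part of any of these in the differences was not tested. Groups of 2 libraries were not searched for outlying libraries.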

How the results depend on the processing

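Of 1770 alternative log2 fold changes for 78 gene results, 1604 kept their direction and side of the threshold, 91 no longer passed, 48 newly passed and 27 changed direction. None of the 39 results that passed changed direction, and 23 of them passed under every alternative, limits on the fold aside. With a replicate block no call of these genes was lost and 6 were gained, which moved the Hs-578T MEK5DD count from 1 to 3 and no other by over 1.5 times. That count was 2 under quantile normalization, under median-ratio scaling and at a pseudocount of 1. The fold limits gave 0 genes with ERK5-ko and 0 with MEK5DD in MDA-MB-231, 2 and 0 for Hs-578T, 1 and 3 for ERK5-ko against MEK5DD, and 2 and 1 for the differences between lines. Fits within Hs-578T gave 2 and 3 genes for ERK5-ko against parental and MEK5DD cells. The ERK5-ko difference between lines gave 3 with a pseudocount of 0.1, no filter or all gene types.

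Leaving out each library in turn, counts ranged from 0 to 4 with ERK5-ko and 4 to 6 with MEK5DD in MDA-MB-231, 2 to 7 and 1 to 6 for Hs-578T, 2 to 5 and 4 to 7 for ERK5-ko against MEK5DD, and 2 to 5 for both differences between lines. The parental count stayed at 9. Log2 values that changed direction, none of which had passed, ranged over these fits from -0.17 to 0.0083 (ITGA1), -0.34 to 0.054 (ITGA11) and -0.018 to 0.22 (ITGA6) for ERK5-ko in Hs-578T, from -0.35 to 0.046 (ITGA7) for ERK5-ko in MDA-MB-231, and from -0.026 to 0.41 (ITGA2), -0.30 to 0.043 (ITGA10), -0.42 to 0.0087 (ITGA6) and -0.0043 to 0.15 (ITGA5) for MEK5DD in Hs-578T. For ERK5-ko against MEK5DD they ranged from -0.029 to 0.085 (ITGA1, MDA-MB-231), -0.087 to 0.34 (ITGA11, Hs-578T) and -0.21 to 0.086 (ITGAV, Hs-578T), and for differences between lines from -0.11 to 0.067 (ITGA1, ERK5-ko), -0.095 to 0.20 (ITGA3, MEK5DD) and -0.36 to 0.17 (ITGA7, MEK5DD). Quantile normalization gave ITGA1 -0.043 for ERK5-ko against MEK5DD in MDA-MB-231 and 0.063 for the ERK5-ko difference, and ITGA3 -0.36 for the MEK5DD difference. Median-ratio scaling gave ITGA1 0.066 for the ERK5-ko difference, and a pseudocount of 0.1 and voom gave ITGA7 0.061 and 0.15 for the MEK5DD difference. The cause was not tested.

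The share of calls over all genes that were higher was 39.9%, 42.5%, 27.5%, 61.5% and 59.5% for ERK5-ko and MEK5DD in MDA-MB-231, MEK5DD and ERK5-ko against MEK5DD in Hs-578T, and the parental lines. With median-ratio scaling it was 52.8%, 47.5%, 44.2%, 48.5% and 48.7%, and with quantile normalization 50.6%, 52.9%, 46.4%, 49.9% and 53.8%. ITGA7, ITGA10 and, in MDA-MB-231, ITGA4 and ITGA11 rested on few reads, which limits their precision.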
